A study of Mus musculus with 44 samples.

Results

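The proteasome subunit genes of mouse germ cells are described here from the primordial stage in the embryo to the third week after birth, with embryonic stem cells beside them. The members are the probes whose gene symbol in the platform annotation starts with Psma, Psmb, Psmc, Psmd, Psme, Psmf or Psmg. The prefix took in 67 of 25697 probes, for 45 genes. Of these, 42 genes had a probe detected at p under 0.01 on at least 2 of the 44 arrays and count as measured, among 10935 measured genes in all, and each gene is represented by its brightest probe. They comprise 12 genes of the core particle, 2 immunoproteasome genes, 16 genes of the regulatory particle, 6 assembly chaperones and 4 activators. The prefix also took in 2 genes that encode no subunit: Psmc3ip, a meiotic recombination factor, and Psme3ip1, a partner of an activator. The single probes of Psma1, Psma6 and the immunoproteasome gene Psmb8 were detected on 0 arrays. Psma8, Psmb11, Psmd3, Psmf1 and Psmg4 were not analysed here.

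The proteasome degrades proteins that carry chains of ubiquitin. Its core particle is a barrel of alpha and beta rings, in which the products of Psmb5, Psmb6 and Psmb7 cut peptide bonds, and a regulatory particle of ATPases (Psmc genes) and other subunits (Psmd genes) binds, unfolds and feeds in the substrate. In immunoproteasomes, which interferon-gamma induces in many cell types, Psmb8, Psmb9 and Psmb10 replace the 3 catalytic subunits. Activators can cap the barrel in place of the regulatory particle: Psme1 and Psme2 together form an interferon-inducible cap known from antigen presentation, Psme3 a nuclear one, and Psme4 one that mouse spermatogenesis uses when histones are removed.

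Gene expression was measured on Illumina mouse beadchips in cells sorted by fluorescence, with 44 arrays in 23 groups, of which 21 held 2 arrays and 2 held 1. Primordial germ cells (PGC) were taken at E11.5 with sex undefined, and from females and males separately on each day from E12.5 to E18.5 (14 arrays per sex). Male germ cells, which the labels also call primordial germ cells, were taken every second day from 8 to 20 days after birth (13 arrays), and embryonic stem cells (ESC) of the OG2 strain, a male line with the Oct4-GFP transgene and otherwise +/+, gave 1 array. No strain, genotype or animal is given for the PGC, and the duplicates may be biological or technical, so the p-values reflect how far duplicate arrays lie apart, which may be technical spread alone. In bulk RNA, fewer cells of a type and less RNA per cell cannot be told apart.

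Embryonic arrays were dimmer than the others, with an upper quartile of probe intensity from 79.9 to 170 against 296 to 606 after birth and 324 in ESC. The E16.5 female pair and the E11.5 pair differed most between replicates. Germ cell markers (7 of 7 measured) had a summed level, given as log2, of 12.9 to 14.7 in PGC of both sexes. The ESC array had 12.96, led by Pou5f1 (12.62), so this sum does not set PGC apart from ESC. Ddx4 was detected on 0 E16.5 female arrays and not in ESC. The sum of leukocyte markers (5 of 12 measured) went in males from 7.67 at E12.5 to 10.8 at E17.5, where Coro1a at 10.14 led it. It stood between 7.09 and 8.20 in females, and between 7.79 and 8.32 after birth. The ESC array had 11.08, led by Laptm5 (10.94), so this sum does not by itself mark leukocytes. Aif1, near the background, went the other way in males, from 5.11 at E12.5 to 4.57 at E18.5. The mesenchymal sum (7 of 8 measured) was 10.9 in E18.5 males, led by Acta2 and Vim, against 8.52 in females. It was 11.15 in ESC and 11.39 at E11.5, so it does not by itself mark mesenchymal cells. Dcn went the other way, with 6.48 in E18.5 males and 7.13 in females. Tcf21 went in males from 5.87 at E12.5 to 4.90 at E18.5. The endothelial sum (6 of 7 measured) was 11.4 in E17.5 males and 8.47 in females. In males it is mainly Egfl7 (11.10, against 5.30 in females). Pecam1 went from 9.58 in E12.5 males to 6.98 at E17.5 and 8.59 at E18.5. From E12.5 to E17.5 in males Esam went from 5.385 to 7.27, Tie1 from 4.57 to 6.50 and Tek from 5.01 to 6.79. Kdr went from 4.99 to 4.61. Of the gonadal supporting cells, the granulosa sum (5 of 6 measured) went in males from 8.06 at E13.5 to 10.27 at E18.5. It stood at 7.24 in E18.5 females. Over these male days Irx3 went from 5.16 to 9.08, Fst from 5.46 to 8.29, Amhr2 from 6.40 to 8.08 and Wnt4 from 5.11 to 6.31. Rspo1 went the other way, from 5.97 to 4.68, and Foxl2 was not measured, so this sum does not by itself show granulosa cells in males. The Sertoli sum (8 of 8 measured) was 12.50 in E12.5 males and 11.59 at E18.5 and is led early by Rhox5. Within it Clu went from 7.61 to 10.30 in males between these days, Cst9 stood at 9.55 and 9.68, and both stayed high after birth, while Cst9 was detected on 0 female arrays. The erythroid sum (4 of 6 measured) was 14.50 at E11.5 and 6.45 in ESC. In females it went from 7.87 at E12.5 to 12.97 at E15.5 and 9.97 at E18.5, led by Hba-a1. In males it stood at 11.08 at E12.5, 10.21 at E13.5, 12.56 at E17.5 and 11.07 at E18.5. Within it Alas2 went in males from 4.79 at E12.5 to 8.51 at E18.5. The part of these cells in the results below was not tested.

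Levels below are normalised log2 intensities, differences are log2 differences ± standard error, and a gene was called, or described as having risen or fallen, at an adjusted p under 0.05 (limma, Benjamini-Hochberg over 10935 genes) and a change of at least 2-fold. Most proteasome genes were present throughout: 31 of 42 were detected on all 44 arrays. Their group means without ESC spanned a median of 1.79 log2 units, against 2.35 over all genes, and 27 members spanned less than that median and 15 more. Psmb2, a core beta subunit, spanned 0.52 and Psmb4 spanned 0.59. Psme1 spanned 6.17, more than 99.2% of all genes, Psmd2, the large regulatory subunit to which ubiquitin shuttles bind, 5.19, Psme2 4.67 and the immunoproteasome gene Psmb10 3.82. The span of Psmd2 rests in part on the E16.5 female pair, where it was detected on 0 of 2 arrays.

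**Figure D1:**
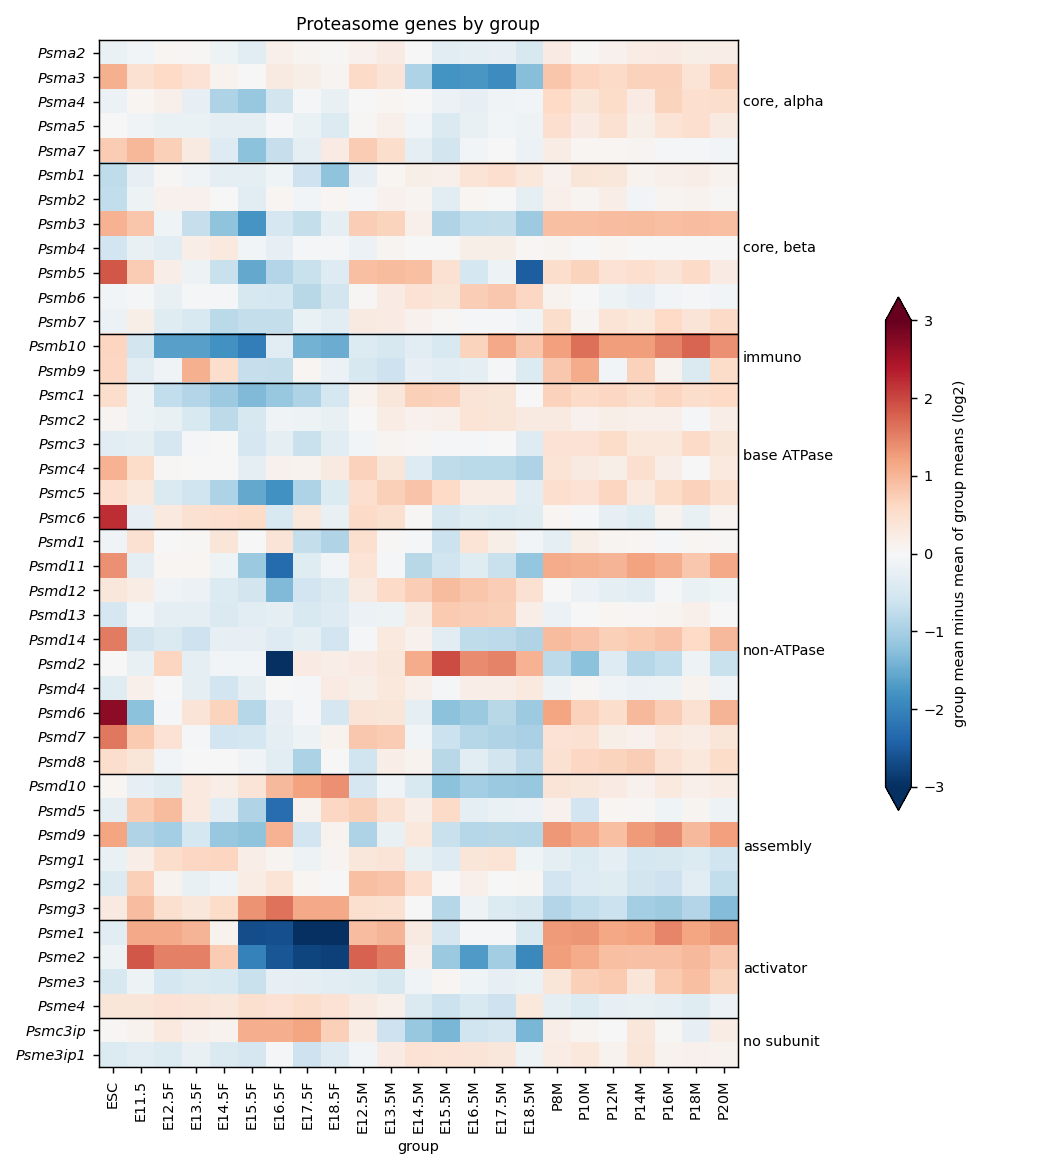
Group means of the 42 measured genes (rows, grouped by their place in the proteasome) in the 23 groups (columns), each centred on the gene's mean of group means, in log2 units from blue (lower) to red (higher). Most core rows stay pale, while Psme1 and Psme2 are dark blue in females from E15.5 and Psmb10 is blue in most female groups and red after birth.

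The counts of called members were mostly close to, or below, those of all genes. In females from E12.5-E13.5 to E17.5-E18.5, 1 of 42 members rose and 2 fell, 7.14% of members, where 21.7% of all genes were called (10.1% higher and 11.6% lower). Over the same days in males, 1 rose and 9 fell, 23.8% against 36.7% (20.3% higher and 16.4% lower). The median change of members was -0.14 in females and -0.34 in males, beside 0.01 and -0.01 over all genes. After birth (8-10 days against E17.5-E18.5 males) 15 were higher and 1 was lower, 38.1% against 37.1% called, of which 18.4% were higher and 18.6% lower, with a median of 0.47 beside 0.02. The total after birth was thus at the background, and its split was to the higher side. From 8-10 to 18-20 days, limma called 0 members, where 1.56% of all genes were called (1.23% higher and 0.338% lower), and 3 members had an unadjusted p under 0.05.

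Against ESC, 0 members were higher in embryonic PGC and 11 were lower, 26.2% against 33.7% (17.2% higher and 16.5% lower), and 7 higher members had an unadjusted p under 0.05. From E11.5 to E12.5, 1 was called, 2.38% against 5.89% (3.33% higher and 2.56% lower). Between the sexes, females were higher for 1 member and lower for 4 at E12.5-E13.5, 11.9% against 12.7% (7.06% higher and 5.67% lower). At E14.5-E15.5 the counts were 4 and 9, 31% against 34.8% (16.9% higher and 17.9% lower). At E17.5-E18.5 they were 5 and 7, 28.6% against 42.5% (20% higher and 22.5% lower). The change over fetal days differed between the sexes for 14 members, 33.3% against 43.1%, more upward or less downward in females for 9 and the reverse for 5 (20.2% and 22.9% of all genes).

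By the adjusted p alone, without the 2-fold threshold, 16 members passed in females and 27 in males over the fetal days, where 46.7% and 64% of all genes passed. After birth 33 members passed (65.9% of all genes), 23 against ESC (48.8%), 3 from E11.5 to E12.5 (13.3%) and 25 for the difference of courses (59.1%). Between the sexes 19, 30 and 27 passed at the 3 stages (35.3%, 60.2% and 68.7%). With median scaling of the arrays in place of quantile normalisation, the median of all genes itself moved by 1.08 after birth and by -0.77 against ESC, and 39 members were then higher after birth and 40 lower in PGC than in ESC. Relative to the median of all genes, members stood 0.46 higher after birth with quantile normalisation and 1.18 with median scaling.

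The 12 core and 16 regulatory genes did not all follow a common course. The 22 group means of each gene without ESC were correlated with the median of the other genes among these 28. This correlation had a median of 0.56, exceeded 0.5 in 15 and was under 0.2 in 8. It was highest for the core beta gene Psmb3 (0.87) and lowest for Psmd2 (-0.21). Among pairs of members, the ATPase genes Psmc1 and Psmc5 correlated at 0.93, Psma3 and Psmc4 at 0.91, Psma4 and Psmb7 at 0.89, and Psma3 and Psmd13 at -0.76. These correlations describe groups that share array brightness and stage.

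The activator genes Psme1 and Psme2 were the 2 members that fell in females, and both also fell in males. Both genes lie on chromosome 14 in RefSeq's annotation of GRCm38.p6, Psme1 at 55578494 to 55581527 and Psme2 at 55587440 to 55591101, on opposite strands. Their promoter windows, 300 bases that end shortly after the start of transcription, are shown because the genes moved together, with those of Psme3, an activator of the same family that did not fall, and Psmb5, a catalytic subunit that fell in males. They come from RefSeq on GRCm38.p6, 5′ to 3′ on the gene's strand: chr14:55578244-55578543 (+) for Psme1, chr14:55591052-55591351 (-) for Psme2, chr11:101315963-101316262 (+) for Psme3 and chr14:54617946-54618245 (-) for Psmb5. Capitals mark matches, on either strand, to an interferon response element (GAAA, any pair of bases, then GAAA), an antioxidant response element (TGACNNNGC) or a CCAAT box (CCAAT).
Psme1: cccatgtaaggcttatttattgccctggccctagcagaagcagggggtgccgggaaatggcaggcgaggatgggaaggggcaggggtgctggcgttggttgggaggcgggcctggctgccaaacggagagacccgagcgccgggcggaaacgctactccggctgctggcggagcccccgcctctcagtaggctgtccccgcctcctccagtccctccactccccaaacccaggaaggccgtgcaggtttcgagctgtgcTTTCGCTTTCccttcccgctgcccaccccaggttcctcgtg
Psme2: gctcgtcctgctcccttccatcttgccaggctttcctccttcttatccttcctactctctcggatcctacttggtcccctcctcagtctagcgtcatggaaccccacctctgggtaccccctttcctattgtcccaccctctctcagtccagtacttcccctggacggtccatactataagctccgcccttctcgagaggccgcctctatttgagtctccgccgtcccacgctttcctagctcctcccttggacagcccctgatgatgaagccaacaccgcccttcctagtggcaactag
Psme3: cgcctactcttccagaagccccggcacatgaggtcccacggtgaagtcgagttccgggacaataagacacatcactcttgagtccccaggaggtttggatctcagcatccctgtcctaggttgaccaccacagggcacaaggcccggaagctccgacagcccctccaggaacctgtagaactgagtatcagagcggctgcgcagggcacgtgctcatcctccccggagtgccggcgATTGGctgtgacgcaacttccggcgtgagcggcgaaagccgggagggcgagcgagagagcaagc
Psmb5: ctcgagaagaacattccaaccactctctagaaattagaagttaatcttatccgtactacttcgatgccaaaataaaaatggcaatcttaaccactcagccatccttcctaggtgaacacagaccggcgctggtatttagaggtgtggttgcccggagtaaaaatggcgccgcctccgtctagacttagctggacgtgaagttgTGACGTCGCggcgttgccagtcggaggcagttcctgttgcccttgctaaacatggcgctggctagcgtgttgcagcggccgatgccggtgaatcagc
With the first transcribed base as position 1, the Psme1 window held an interferon element at position 10, the Psmb5 window an antioxidant element at position -47 and the Psme3 window a CCAAT box at position -14. The Psme2 window held none of the 3 motifs. Of the 36 measured members with a window, 4 held the interferon element (Psme1, Psmb3, Psmd4 and Psmd9, 11.1%), 6 the antioxidant element (16.7%) and 13 a CCAAT box (36.1%). Some members have several windows. Counted by window, the shares were 10.3%, 15.4% and 33.3% of the members' 39 windows, and 3.44%, 12.4% and 37.4% of all 32851 windows. A match describes these letters and no bound factor.

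In females Psme1 stood at 11.08 and 11.10 at E12.5, 10.85 and 11.10 at E13.5, 9.89 and 10.23 at E14.5, and 7.20 and 7.41 at E15.5. It then stood at 8.02 and 6.61 at E16.5, 6.47 and 6.40 at E17.5, and 5.58 and 4.93 at E18.5, where it was detected on neither array. It was detected on 2 of the 4 arrays of E17.5-E18.5. The steepest step between neighbouring days lay between E14.5 and E15.5, and the late arrays did not overlap the early ones. The female erythroid sum was 11.37 at E14.5, 12.97 at E15.5 and 9.97 at E18.5, and its part in this course was not tested. From E12.5-E13.5 to E17.5-E18.5 Psme1 fell by 5.19 ± 0.20 in females (adjusted p = 5.29e-17). A second Psme1 probe fell by 4.93, and its 23 group means correlated with the first at 0.98.

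In males Psme1 stood at 10.90 and 10.85 at E12.5, 10.97 and 10.98 at E13.5, 10.50 and 9.96 at E14.5, and 9.26 and 9.64 at E15.5. From E16.5 to E18.5 the 6 male arrays lay between 9.50 and 10.03, above the 6 female arrays of the same days. In males Psme1 fell by 1.22 ± 0.20 (adjusted p = 6.02e-06), and the female change differed from the male one by -3.96 ± 0.28 (adjusted p = 7.71e-12). Females and males at E12.5-E13.5 differed by 0.11 ± 0.20 (adjusted p = 0.750). At E17.5-E18.5 females were lower by -3.86 ± 0.20 (adjusted p = 5.45e-15).

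Psme2, the partner subunit of Psme1, fell in both sexes. Female arrays stood at 9.28 and 9.52 at E12.5, 8.69 and 8.57 at E14.5, 5.92 and 5.78 at E15.5, and 5.16 and 4.98 at E18.5. From E15.5 on it was detected on 1 of 8 female arrays. Male arrays stood at 9.63 and 9.68 at E12.5, 8.63 and 7.44 at E14.5, 6.86 and 6.65 at E15.5, and 5.78 and 6.11 at E18.5, and each of the 14 detected it. The change was -4.29 ± 0.21 in females (adjusted p = 1.20e-14) and -3.14 ± 0.21 in males (adjusted p = 2.24e-12). The difference between the sexes, -1.15 ± 0.30 (adjusted p = 0.00207), was lost with median scaling (-0.62, adjusted p = 0.150) and without background correction (-0.25, adjusted p = 0.120), and fell under 2-fold without either of 2 arrays: -0.88 without E17.5 female replicate 1 and -0.98 without E17.5 male replicate 1. Late female values lie near the background of the array, which limits how large the female change can read.

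Psme3 and Psme4 showed no such fall. Psme3 ranged from 10.17 to 11.73 in group mean and differed by 0.19 ± 0.10 in females (adjusted p = 0.130) and 0.20 ± 0.10 in males (adjusted p = 0.0921) over the fetal days. Psme4, the activator that spermatogenesis uses, differed by 0.06 ± 0.11 in females (adjusted p = 0.671) and by -0.36 ± 0.11 in males (adjusted p = 0.00399), under the 2-fold threshold. Its male group means lay between 10.05 and 10.26 from E14.5 to E17.5, and the E18.5 male arrays read 10.97 and 11.03, just under the female arrays of that day at 11.12 and 11.13. After birth Psme4 stood between 10.28 and 10.51 in group mean. A second, dimmer Psme4 probe was detected on 25 arrays. Its male means went from 5.95 and 6.15 at E12.5 and E13.5 to 4.70 and 5.57 at E17.5 and E18.5, under 2-fold. At E17.5 and E18.5 its female means were 6.92 and 6.48, more than 2-fold above the male ones.

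After birth the activator pair stood high in male cells. Psme1 read 11.32 and 11.16 at 8 days and 11.45 and 11.11 at 10 days, and Psme2 read 9.22 and 9.03, then 9.14 and 8.84. Against E17.5-E18.5 males, Psme2 was higher by 2.66 ± 0.21 (adjusted p = 5.49e-11) and Psme1 by 1.56 ± 0.20 (adjusted p = 1.51e-07), with no overlap of arrays. This comparison shares its fetal arrays with the male fetal one. Neither gene was called from 8-10 to 18-20 days. The ESC array read 9.61 for Psme1 and 7.72 for Psme2, and neither was called against PGC.

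**Figure D2:**
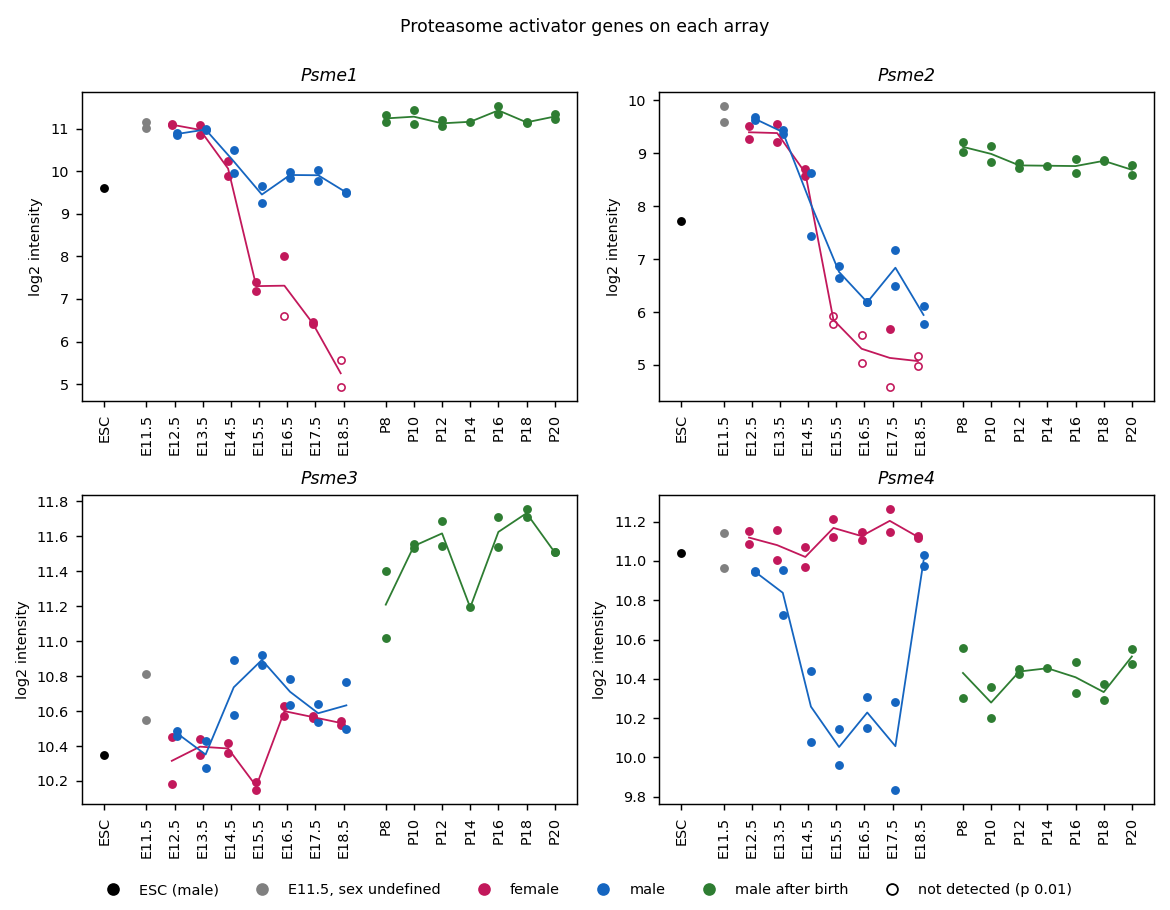
Log2 intensity of the 4 activator genes on each array (points) by stage, with lines through group means, in ESC (black), E11.5 (grey), females (red), males (blue) and males after birth (green), and with hollow points where the probe was not detected. Psme1 in females reaches 5.58 and 4.93 at E18.5 while males of that day read 9.50 on both arrays, and Psme3 and Psme4 stay above 9.8 throughout.

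Of the 12 core genes, 0 were called in females over the fetal days (5 had an unadjusted p under 0.05, each lower), and 3 fell in males: Psmb5, Psma3 and Psmb3. Psmb5, the chymotrypsin-like catalytic subunit, stood at 8.81 and 9.17 in E12.5 males, 8.94 and 9.12 at E13.5, 8.13 and 7.73 at E17.5, and 5.07 and 6.19 at E18.5. The E18.5 pair was the lowest of the 23 groups for this gene, and in males it fell by 2.23 ± 0.19 (adjusted p = 1.10e-10). In females Psmb5 reached its lowest mean at E15.5 (6.41 and 6.67) and read 7.38 and 8.01 at E18.5. The female change, -0.56 ± 0.19, differed from the male one by 1.68 ± 0.27 (adjusted p = 5.95e-06). At E14.5-E15.5 females were lower than males by -1.78 ± 0.19 (adjusted p = 6.81e-09). Without background correction this difference was -0.95 and that between the courses 0.82, both under 2-fold.

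The other catalytic genes moved differently. Psmb6, the caspase-like subunit, read 12.24 and 12.28 in E12.5 males and 12.78 and 12.92 at E18.5, while females went from 12.01 and 12.02 to 11.71 and 11.67. Neither change reached 2-fold (0.58 ± 0.08 in males and -0.57 ± 0.08 in females), but at E17.5-E18.5 females were lower by -1.41 ± 0.08 (adjusted p = 6.20e-14). Their courses differed by -1.14 ± 0.12 (adjusted p = 4.86e-09), and by -0.83 with median scaling (adjusted p = 0.0787). Psmb7, the trypsin-like subunit, spanned 11.15 to 12.55 in group mean and was called in 0 of the 10 comparisons on its brightest probe. On another probe its means at E14.5 and E15.5 were 10.49 and 10.49 in females and 11.61 and 11.59 in males, more than 2-fold apart. A further probe gave 8.89 and 8.70 against 9.86 and 9.63, under 2-fold. Psmb1, a beta subunit without catalytic activity, was also lower in females at E17.5-E18.5, by -1.33 ± 0.10 (adjusted p = 5.62e-12).

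**Figure D3:**
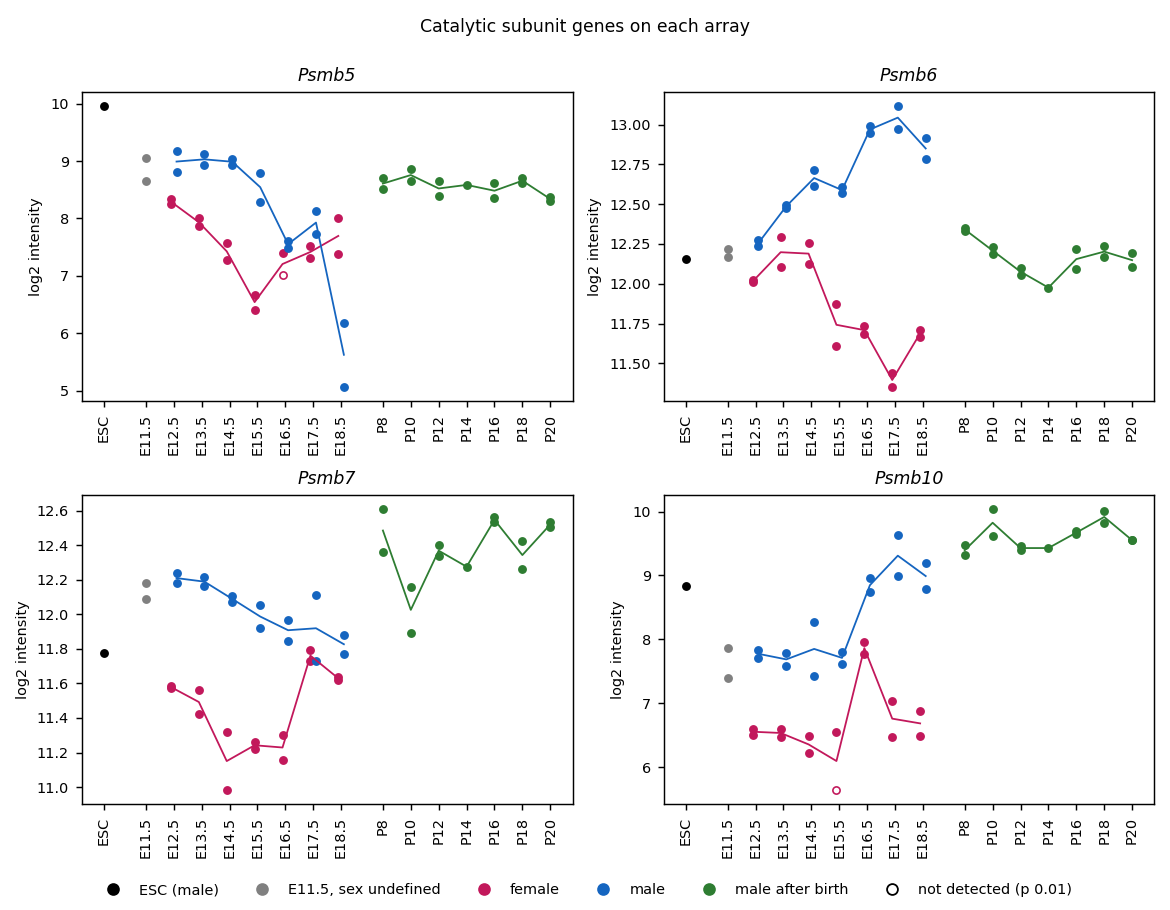
Log2 intensity of the catalytic genes Psmb5, Psmb6 and Psmb7 and of Psmb10, the immunoproteasome counterpart of Psmb7, on each array by stage, in the colours of the sexes and stages given in the key, with hollow points where not detected. Psmb5 drops to 5.07 and 6.19 in E18.5 males, and Psmb10 lies lower in females than in males of the same day from E12.5 to E18.5.

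Psma3, an alpha ring subunit, had the largest difference between the sexes among core genes at E17.5-E18.5 (1.71 ± 0.11, adjusted p = 3.17e-13). Males read 12.37 and 12.48 at E12.5, 11.09 and 10.79 at E14.5, 9.90 and 10.26 at E15.5, and 10.45 and 10.73 at E18.5. Females read 12.47 and 12.45 at E12.5 and 12.02 and 11.88 at E18.5. From E14.5 on each female array lay above each male array of its day. Over the fetal days it fell by 2.06 ± 0.11 in males (adjusted p = 1.40e-14), and the courses differed by 1.67 ± 0.15 (adjusted p = 8.03e-10). After birth Psma3 read 12.69 and 12.68 at 8 days, higher than in late fetal males by 2.31 ± 0.11 (adjusted p = 2.12e-15).

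Psmb3, a beta subunit, took another course, lower in females first. It read 12.08 and 11.99 in males and 11.10 and 11.25 in females at E12.5, reached 9.48 and 9.59 in females at E15.5, and was 10.15 and 10.29 in males and 10.94 and 11.07 in females at E18.5. Females were thus lower at E12.5-E13.5 (-1.11 ± 0.10, adjusted p = 1.99e-09) and at E14.5-E15.5 (-1.11 ± 0.10, adjusted p = 2.88e-10) and not called at E17.5-E18.5. In males it fell by 1.59 ± 0.10 (adjusted p = 2.72e-13), and after birth it was higher by 1.80 ± 0.10 (adjusted p = 3.37e-14). Psma3, Psmb3 and Psmb5 were also the 3 core genes lower in PGC than in the single ESC array, by -1.36 ± 0.15, -1.48 ± 0.14 and -2.08 ± 0.27.

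Psma7, whose alpha subunit the testis-specific Psma8 product replaces in spermatocytes, was called in 0 comparisons. Its largest changes were -0.73 ± 0.13 in males over the fetal days and -0.78 ± 0.18 against ESC. Psma2, Psma4, Psma5, Psmb2 and Psmb4 were likewise called in none.

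The immunoproteasome gene Psmb10 was lower in females than in males at each of the 3 stages compared. Females read 6.51 and 6.60 at E12.5, 6.55 and 5.64 at E15.5, 7.77 and 7.96 at E16.5, and 6.49 and 6.88 at E18.5. Males read 7.84 and 7.71 at E12.5, 7.80 and 7.62 at E15.5, 8.96 and 8.74 at E16.5, and 9.20 and 8.78 at E18.5. The difference was -1.19 ± 0.20 at E12.5-E13.5 (adjusted p = 2.74e-05), -1.55 ± 0.20 at E14.5-E15.5 (adjusted p = 1.43e-07) and -2.43 ± 0.20 at E17.5-E18.5 (adjusted p = 3.44e-11). A second probe gave -0.97, -1.77 and -2.44. Without background correction the first and second differences were -0.51 and -0.64, under 2-fold, and the first was -0.95 with an offset of 50.

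Psmb10 was the only member that rose in males over the fetal days, by 1.42 ± 0.20 (adjusted p = 5.92e-07), and the second probe gave 0.90, under 2-fold, as did the first without background correction (0.89) or with median scaling (0.94). The courses of the sexes differed by -1.24 ± 0.28 (adjusted p = 4.03e-04), by -0.98 with median scaling (adjusted p = 0.00688) and by -0.82 without background correction. The sum of leukocyte markers went up over the same male days, from 7.67 at E12.5 to 10.6 at E18.5, and was 11.08 in ESC. The granulosa, mesenchymal and endothelial sums and Clu went up as well, though single members such as Aif1, Rspo1 and Tcf21 went down. The male erythroid sum stood at 11.08 at E12.5, 10.21 at E13.5, 12.56 at E17.5 and 11.07 at E18.5. The part of these markers in the rise of Psmb10 was not tested. After birth Psmb10 read between 9.32 and 10.03 on the 4 arrays of 8 and 10 days, where the leukocyte sum was 8.28 and 8.32. Psmb10 was also lower in PGC than in ESC (-1.32 ± 0.28, adjusted p = 3.34e-04), where its PGC arrays, from 5.64 to 9.63, overlapped the ESC value of 8.83.

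Psmb9, which replaces the Psmb6 product, was near the background, with 11 of 44 arrays detected. It read 6.19 and 5.98 in E13.5 females and 6.14, 5.51, 6.27 and 5.97 at 8 and 10 days, and was detected on these 6 arrays. It was called higher in females at E12.5-E13.5, with means of 5.49 and 4.47 (adjusted p = 2.09e-04). As 2 of 4 female and 0 of 4 male arrays detected it, and the female mean does not exceed the lowest detectable signal of the male arrays, no fold is given. The call was lost without any of 4 arrays: E12.5 female replicate 2, E13.5 female replicate 1, E12.5 male replicate 1 or E13.5 male replicate 1. After birth it was higher by 1.19 ± 0.20 (adjusted p = 1.01e-05), with 1 of 4 fetal arrays detected, and by 0.29 without background correction. From 8-10 to 18-20 days it differed by -0.89 ± 0.20 (adjusted p = 0.00746), the 1 member past the adjusted p alone in that comparison, where 3.26% of all genes were.

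In the regulatory particle, 0 of 16 genes were called in females over the fetal days (5 had an unadjusted p under 0.05, 4 of them lower) and 4 fell in males. These were the ATPase gene Psmc4 (-1.40 ± 0.10, adjusted p = 3.61e-12) and the lid genes Psmd7 (-1.72 ± 0.12, adjusted p = 5.34e-12), Psmd6 (-1.33 ± 0.31, adjusted p = 5.99e-04) and Psmd11 (-1.10 ± 0.33, adjusted p = 0.00513). Psmd11 fell under 2-fold without E12.5 male replicate 2 (-0.97) or E18.5 male replicate 1 (-0.82), and it and Psmd6, detected on 1 of the 4 late arrays, read -0.50 and -0.35 without background correction. The other probes of both genes, detected on 26 and 15 arrays, went down by less than 2-fold. Psmd11 went from 6.22 and 5.79 at E12.5 and E13.5 to 5.45 and 4.78 at E17.5 and E18.5. Psmd6 went from 5.38 and 5.39 to 4.40 and 4.49. Psmc4 read 11.76 and 11.64 in E12.5 males and 10.13 and 10.01 at E18.5, while females stood between 10.51 and 11.29 throughout. Psmd7, the partner of the deubiquitinase subunit, fell from 10.65 and 10.67 to 9.06 and 8.70 in males. In females it was lowest at E14.5 (9.31 and 9.21) and read 9.97 and 9.92 at E18.5. The courses of the sexes differed by 1.56 ± 0.14 for Psmc4 (adjusted p = 5.25e-10) and 1.52 ± 0.17 for Psmd7 (adjusted p = 4.43e-08).

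The ATPase genes Psmc1 and Psmc5 were called between the sexes and in neither sex over the fetal days. At E14.5 Psmc5 read 9.93 and 10.05 in females and 11.74 and 11.81 in males, and at E18.5 it read 10.56 and 10.45 against 10.41 and 10.80. Females were lower at E12.5-E13.5 by -1.12 ± 0.11 for Psmc5 (adjusted p = 8.20e-09) and -1.02 ± 0.13 for Psmc1 (adjusted p = 8.02e-07). At E14.5-E15.5 they were lower by -1.96 ± 0.11 (adjusted p = 3.70e-14) and -1.91 ± 0.13 (adjusted p = 2.50e-12). At E17.5-E18.5 neither was called. A second Psmc5 probe gave -0.83 at the first stage, under 2-fold, and -1.62 at the second. Psmc1 at the first stage was -0.88 without background correction.

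Psmd2 was high in males of mid gestation and low after birth. Male arrays read 7.82 and 8.00 at E12.5, 9.24 and 9.99 at E15.5, and 8.58 and 8.80 at E18.5, and arrays of 8 and 10 days read 7.04, 6.72, 6.56 and 6.29. The difference after birth was -2.27 ± 0.25 (adjusted p = 1.24e-08), with -2.23 on a second probe, and was the 1 fall among members. With median scaling it was -0.34 (adjusted p = 0.124), while the median of all genes moved by 1.08. Females were lower by -1.63 ± 0.25 at E14.5-E15.5 (adjusted p = 2.69e-06) and by -1.03 ± 0.25 at E17.5-E18.5 (adjusted p = 6.28e-04). The later difference was under 2-fold without E17.5 male replicate 2 (-0.86), E18.5 male replicate 2 (-0.98) or E18.5 female replicate 1, and was -0.64 without background correction. The lid gene Psmd12 was lower in females at the same stages (-1.33 ± 0.09 and -1.10 ± 0.09), but its second probe was under 2-fold at both, with -0.89 (adjusted p = 0.0330) and -0.61 (adjusted p = 0.132).

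After birth 6 regulatory genes were higher. They were Psmd11 (1.99 ± 0.33), Psmd6 (1.90 ± 0.31), Psmd14 (1.74 ± 0.14), Psmd7 (1.38 ± 0.12), Psmc4 (1.20 ± 0.10) and Psmd8 (1.20 ± 0.16), with adjusted p from 6.91e-11 for Psmd14 to 9.01e-06 for Psmd11 and no overlap of arrays. Psmd14 encodes the deubiquitinase that removes ubiquitin chains at the pore, and it read 8.03, 8.23, 7.90 and 8.14 in E17.5-E18.5 males and 9.99, 9.74, 9.80 and 9.75 at 8 and 10 days. Psmd8 was under 2-fold without E17.5 male replicate 2 (0.97) or background correction (0.94), and Psmd6 was so without background correction (0.56). The list rests on the brightest probes. A second Psmd7 probe had means of 8.77 and 8.98 at E17.5 and E18.5 and 9.83 and 9.42 at 8 and 10 days, under 2-fold apart. A second probe of Psmc5, which is not in the list, had 10.61 and 9.82, then 11.52 and 11.64, more than 2-fold apart. Arrays after birth were brighter than those before, as given above, and the part of brightness in these differences was not tested.

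Against ESC, 6 regulatory genes were lower in embryonic PGC, namely Psmd6 (-3.07 ± 0.45), Psmc6 (-2.17 ± 0.34), Psmd14 (-1.93 ± 0.20), Psmd11 (-1.87 ± 0.47), Psmd7 (-1.73 ± 0.18) and Psmc4 (-1.16 ± 0.14). Their adjusted p ran from 1.20e-08 for Psmd7 to 0.00189 for Psmd11. Psmd12 was not called on its brightest probe. Its second probe, detected on 40 arrays, read 9.61 in ESC and 5.68 to 7.41 in the means of embryonic PGC groups, more than 2-fold lower. The ATPase gene Psmc6 read 7.15 in ESC and was detected on 1 of 30 embryonic PGC arrays, so its PGC level lies at the background, and the difference was -0.66 without background correction. The ESC side is 1 array, whose spread is taken from the other groups. Psmd6 was also the 1 member called from E11.5 to E12.5 (adjusted p = 0.0151), with means of 4.78 and 6.19. It was detected on 0 of 2 E11.5 arrays (4.70 and 4.86) and the 4 E12.5 arrays read 5.65 to 6.52, and their mean does not exceed the lowest detectable signal at E11.5, so no fold is given. The call was lost without E11.5 replicate 1 (adjusted p = 0.162) or E12.5 female replicate 2 (adjusted p = 0.0546).

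Among the assembly chaperones, Psmd10 (gankyrin), which helps to build the base of the regulatory particle, was the 1 member that rose in females. It is X-linked. Females read 9.10 and 9.05 at E12.5, 9.76 and 9.86 at E15.5, 10.64 and 10.62 at E17.5, and 10.90 and 10.70 at E18.5. Males read 8.98 and 8.85 at E12.5, 8.41 and 7.96 at E15.5, and 8.48 and 8.09 at E18.5. The female rise was 1.31 ± 0.15 (adjusted p = 3.21e-08), and the male change of -0.82 ± 0.15 was under 2-fold on the brightest probe. On the other 2 probes the male means went down by just over 2-fold. One went from 7.96 and 7.91 at E12.5 and E13.5 to 6.99 and 6.75 at E17.5 and E18.5. The other went from 8.10 and 8.44 to 7.32 and 7.13. Females were higher by 2.41 ± 0.15 at E17.5-E18.5 (adjusted p = 1.27e-13), with 2.73 and 2.38 on the other 2 probes, and the courses differed by 2.13 ± 0.21 (adjusted p = 2.11e-09). After birth Psmd10 was higher than in late fetal males by 1.49 ± 0.15 (adjusted p = 1.65e-09).

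Psmg3, a chaperone of core assembly, was higher in females at E14.5-E15.5 (1.39 ± 0.15, adjusted p = 1.79e-08) and at E17.5-E18.5 (1.58 ± 0.15, adjusted p = 1.34e-09). Females read 8.88 and 8.95 at E12.5 and 9.53 and 9.61 at E18.5, and males 8.99 and 8.86, then 8.09 and 7.81. Its courses differed by 1.65 ± 0.22 (adjusted p = 4.38e-07). Without background correction the first of these differences was 0.90. Psmd5, another base chaperone, was lower in females at E14.5-E15.5 by -1.02 ± 0.17 (adjusted p = 8.57e-06), which went under 2-fold without E15.5 female replicate 2 (-0.84), E14.5 female replicate 2 (-0.84), E14.5 male replicate 2 (-0.93) or E15.5 male replicate 1, and was -0.59 without background correction. Psmd9, a base chaperone too, was called on its brightest probe against ESC (-1.74 ± 0.34) and after birth (2.07 ± 0.24), where its other probe, detected on 23 arrays rather than 20, gave -0.11 (adjusted p = 0.875) and 0.25 (adjusted p = 0.556). Psmg1, and Psmg2 on its brightest probe, were called in 0 comparisons. A second Psmg2 probe, also detected on 44 arrays, did not follow the first, with a correlation of -0.01 over 23 group means. At E12.5 and E13.5 its means were 9.35 and 9.06 in females and 10.39 and 10.54 in males, more than 2-fold apart.

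**Figure D4:**
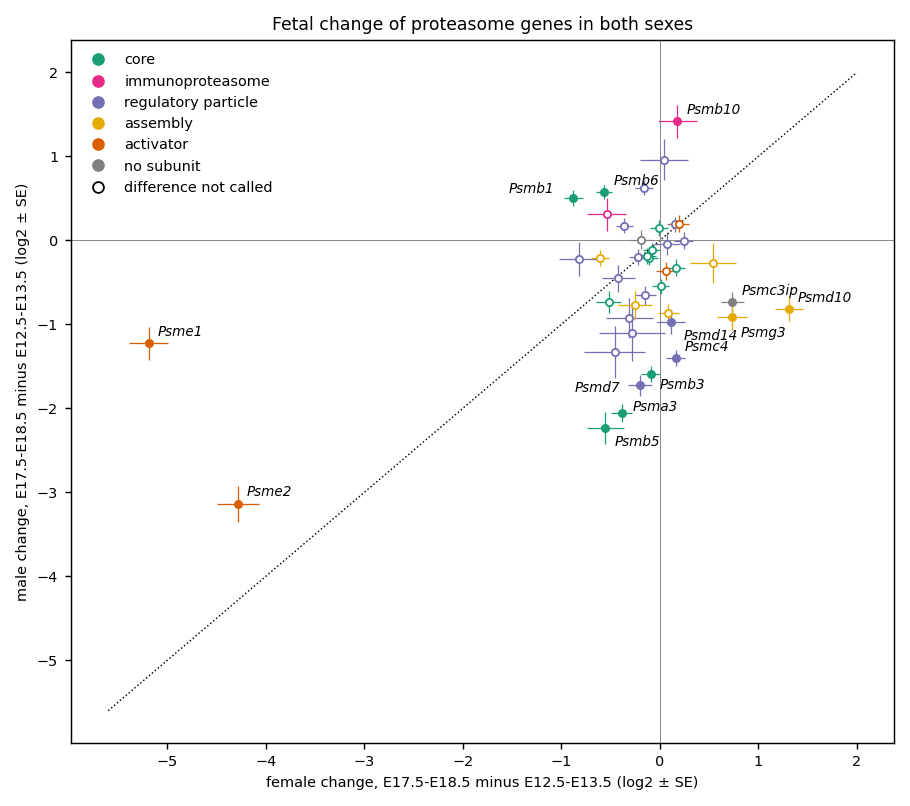
Female (x axis) against male (y axis) change from E12.5-E13.5 to E17.5-E18.5 for the 42 genes, in log2 units with standard errors, coloured by class, with a dotted line of equal change and names and filled points where the difference between the sexes was called. Psme1 and Psme2 lie far to the left, Psmd10 to the right, and Psma3, Psmb3, Psmb5, Psmd7 and Psmc4 low on the male axis and closer to 0 on the female axis.

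Psmc3ip, the recombination factor that the prefix took in, was higher in females of mid and late gestation. Females read 10.46 and 10.36 at E12.5, 11.14 and 11.29 at E15.5, and 10.85 and 10.83 at E18.5, and males 10.33 and 10.38, 8.74 and 8.77, and 8.64 and 8.89. The difference was 1.86 ± 0.12 at E14.5-E15.5 (adjusted p = 4.28e-13) and 1.88 ± 0.12 at E17.5-E18.5 (adjusted p = 2.30e-13), and the courses differed by 1.47 ± 0.17 (adjusted p = 2.89e-08). After birth it was higher by 1.07 ± 0.12 (adjusted p = 1.22e-08), and by under 2-fold without E17.5 male replicate 2 (0.99) or 8-day replicate 1 (0.96), or without background correction (0.86). Psme3ip1 was called in 0 comparisons.

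**Figure D5:**
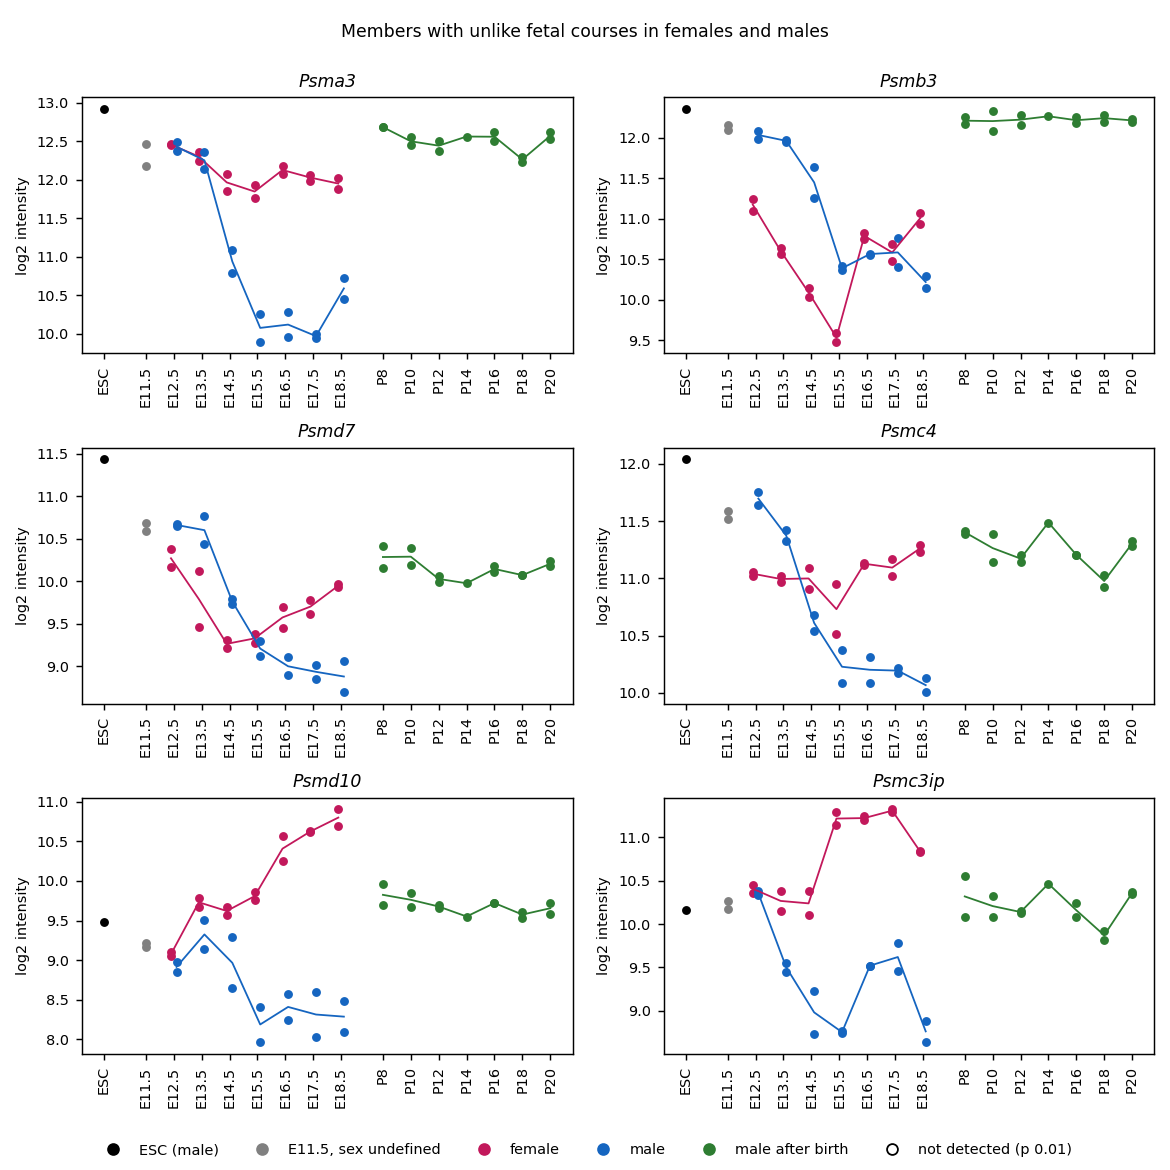
Log2 intensity of Psma3, Psmb3, Psmd7, Psmc4, Psmd10 and Psmc3ip on each array by stage, with lines through group means and the colours of the key. Males fall between E13.5 and E15.5 for Psma3, Psmb3, Psmd7 and Psmc4, while Psmd10 climbs to 10.90 and 10.70 in E18.5 females.

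Of 14 listed factors that bind or mature the proteasome, 7 were measured. In males over the fetal days 1 rose and 3 fell, where 36.7% of all genes were called, with a median of -0.45 beside -0.01 over all genes, and in females 0 were called, where 21.7% of all genes were. Pomp, the maturation chaperone of the core, fell by 1.27 ± 0.10 in males (adjusted p = 4.50e-11). The deubiquitinase genes Usp14 (-1.85 ± 0.33, adjusted p = 2.91e-05) and Uchl5 (-1.44 ± 0.20, adjusted p = 4.56e-07) fell with it, and Ecpas, an adaptor, rose by 1.12 ± 0.22 with overlapping arrays. After birth 4 of 7 were higher, where 18.4% of all genes were, with a median of 1.00 beside 0.02: Usp14 (3.36 ± 0.33, adjusted p = 2.52e-09), Uchl5 (1.80 ± 0.20), Pomp (1.24 ± 0.10) and Zfand2a (1.00 ± 0.13).

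Of 11 listed ubiquitin shuttles and segregase genes, 7 were measured, of which limma called 0 in females, 2 in males and 4 after birth (21.7%, 36.7% and 37.1% of all genes). In males over the fetal days Bag6 rose (1.35 ± 0.12) and the shuttle Ubqln4 fell (-1.52 ± 0.16). After birth Nploc4 was higher (1.32 ± 0.15), and Ubqln1 (-2.60 ± 0.17), Bag6 (-1.68 ± 0.12) and Rad23b (-1.61 ± 0.17) were lower. The 1 measured ubiquitin ligase or activating gene of 7 listed, Ube3a, fell by 1.33 ± 0.32 in males (adjusted p = 8.30e-04) and was higher after birth by 1.99 ± 0.32 (adjusted p = 6.50e-06). The 2 measured of 4 listed transcription factors of proteasome genes, Nfe2l1 and Nfe2l2, were called in 0 of the fetal, sex and birth comparisons.

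Among 12 listed genes of antigen presentation and interferon response, 9 were measured. Of these, Nlrc5 and Tap2 were each detected on 8 arrays, all of males from E14.5 on in the fetus, and H2-D1 on 3, all of E14.5-E15.5 females. They passed the filter on dim probes only through those groups and had to differ there, so no count over the list is given. Irf1, an interferon-induced transcription factor, changed by -2.26 ± 0.11 in females (adjusted p = 7.46e-15) and by -2.04 ± 0.11 in males (adjusted p = 2.50e-14), and was higher after birth by 1.63 ± 0.11 (adjusted p = 1.97e-12). Nlrc5, a transactivator of class I genes, had a mean of 7.09 in E17.5 males and 4.36 in E13.5 males, and the peptide transporter gene Tap2 6.96 and 4.40, which is a description without a test. B2m, the light chain of class I molecules, rose by 1.55 ± 0.22 in males (adjusted p = 9.39e-07). The loading factor Tapbp fell by 2.06 ± 0.24 in males (adjusted p = 3.26e-08). The high levels of Nlrc5, Tap2 and B2m fell on the male days when the leukocyte, mesenchymal, granulosa and endothelial sums went up. The male erythroid sum was highest at E17.5, with 12.56. The part of these sums was not tested. In females at E14.5-E15.5, H2-K1, a class I heavy chain, was at least 5.08-fold higher than in males, where it was not well above background.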

How the data were processed

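RNA from sorted cells was amplified and hybridised to Illumina mouse beadchips, per the labels' protocols. The authors deposited non-normalised probe intensities with a detection p-value for each probe, read with BeadStudio 3.2 per the submitters' processing notes. They also deposited log2 values, for which these notes name RMA and lumi, and these served as an alternative. From the deposited intensities, neqc estimated the background with the help of the detection p-values, subtracted it, added an offset of 16 and applied quantile normalisation ( limma 3.58.1, R 4.3.3). Probes detected at p under 0.01 on 2 or more arrays were kept, 16086 of 25697, and the brightest probe of a gene was used. A mean was fitted for each of 23 groups with 21 residual degrees of freedom, and p-values were adjusted over 10935 genes. A bound sets a group detected on no array at its background.

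The genes and lists were chosen with earlier results of these data known. Named members are the called ones whose arrays do not overlap, up to 10 each way, and reference subunits fixed by function. Symbols come from the platform annotation, positions and promoters from RefSeq. Replicate numbers did not pair samples: over 210 pairs of groups, deviations of same-numbered arrays correlated at -0.124 to 0.335, above 0.1 in 21. The fit was tested on simulated data. Alternatives varied background, offset, scaling, source, filter, probe, threshold, weights, arrays and a replicate block. Slides are not given in the sources used here, and the number of arrays limits the precision.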

Additional observations from a re-analysis of the deposited data

Results flagged for a closer look

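The change from E12.5-E13.5 to E17.5-E18.5 differed between females and males, by a test of the difference itself, for 14 proteasome genes. Given as the female minus the male change in log2 units, 5 were negative: -3.96 for Psme1, -1.38 for Psmb1, -1.24 for Psmb10, -1.15 for Psme2 and -1.14 for Psmb6. The other 9 were positive: 1.08 for Psmd14, 1.47 for Psmc3ip, 1.501 for Psmb3, 1.52 for Psmd7, 1.56 for Psmc4, 1.65 for Psmg3, 1.67 for Psma3, 1.68 for Psmb5 and 2.13 for Psmd10. Over all genes 43.1% were called in this test, so the share of members, 33.3%, does not set them apart. Psmd14 went under 2-fold without E12.5 male replicate 2 (0.99) or E13.5 male replicate 2 (1.00), or without background correction (0.69).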

How the results depend on the processing

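Of 119 counts of called members under alternatives that kept all replicates or left out the E11.5 and E16.5 female pairs (chosen after seeing the data), 95 stayed within 1.5 times the reported count. Without background correction the count was 0 from E11.5 to E12.5, 2 between the sexes at E12.5-E13.5, 7 at E14.5-E15.5 and 10 after birth. With an offset of 50 it was 0 and 2 in the first 2 of these. With median scaling it was 40 against ESC, 0 from E11.5 to E12.5, 19 in males over the fetal days (0 higher), 39 after birth and 1 from 8-10 to 18-20 days. The median of all genes then moved by -0.77, 0.15, -0.12, 1.08 and -0.14 in these 5, and members stood at -1.26, 0.24, -0.79, 1.18 and -0.15 relative to it. The split between higher and lower in females also moved with it, to 0 and 5 at E12.5-E13.5, 3 and 13 at E14.5-E15.5, 7 and 4 at E17.5-E18.5, and 12 and 2 for the difference of courses. The authors' log2 values gave 1 from 8-10 to 18-20 days. Array weights, and the compared arrays alone, each gave 0 from E11.5 to E12.5. With no fold threshold the counts were 23 against ESC, 3 from E11.5 to E12.5, 16 in females and 27 in males over the fetal days, 19, 30 and 27 between the sexes at the 3 stages, 25 for the difference of courses, 33 after birth and 1 from 8-10 to 18-20 days.

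Leaving out single arrays gave 11 to 11 against ESC, 0 to 2 from E11.5 to E12.5, 3 to 4 in females, 10 to 12 in males, 4 to 5, 12 to 14 and 11 to 14 between the sexes, 13 to 16 for the difference of courses, 14 to 16 after birth and 0 to 1 from 8-10 to 18-20 days. The fit with the replicate number as a block changed none of the 10 counts by more than 1.5 times, and the numbers do not pair the samples. Of 83 results for single genes, 83 kept their direction and 53 also their call under the alternatives run. For the calls that were lost, the cause was not tested. Genes near the background (Psmb9, Psmc6, Psmd6, Psmd9, and Psme1 and Psme2 in late females) have the least certain sizes.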
